A study of Mus musculus with 8 samples.

Results

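The 9 genes described here encode scaffolds and a kinase of the postsynaptic density, the protein mesh under the membrane of excitatory synapses. They were taken by symbol as Dlg1, Dlg2, Dlg3, Dlg4, Shank1, Shank2, Shank3, Camk2a and Camk2b, and all 9 were found among the 23116 genes of the deposited matrix. The matrix gives TPM, a level adjusted for transcript length and for the total of a library, so genes can be set side by side. It covers 8 libraries from mice at postnatal day 27, by their labels, and 1 tissue, the dorsal lateral geniculate nucleus (dLGN), through which retinal signals reach the cortex. The labels name 4 libraries Fn14 WT and 4 Fn14 KO, for the TWEAK receptor gene Tnfrsf12a. All 8 are labelled C57BL/6J and standard housing as control treatment, and the series describes WT and KO littermates of both sexes, while the sex of each mouse and the kind of deletion are not given in the labels. Each library is taken as 1 mouse, and the libraries are named WT 1 to WT 4 and KO 1 to KO 4.

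Scaffolds of the Dlg family bind the tails of glutamate receptors and channels through PDZ domains and hold them in the synaptic membrane. Shank proteins lie deeper in the density and join the receptor layer, through linker proteins, to the actin cytoskeleton. Camk2a and Camk2b encode the alpha and beta subunits of calcium/calmodulin-dependent kinase II, which assemble into mixed holoenzymes, and in the rodent forebrain the alpha subunit is known to become abundant after birth while the beta subunit is present earlier. In the dLGN, relay neurons receive retinal and cortical glutamatergic synapses with such densities.

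Tnfrsf12a, the targeted gene (chromosome 17, 23675445 to 23677468, GRCm38), was at 4.78 TPM in WT 1, 5.48 in WT 2, 3.67 in WT 3 and 0.82 in the library labelled WT 4. KO 1 to KO 4 gave 2.95, 1.12, 1.32 and 1.86 TPM. Its label notwithstanding, the library labelled WT 4 gave the lowest value of all 8, and the log2 difference of −0.63 (SE 0.43) did not pass in limma (adjusted p = 0.452). Mbp, a main myelin protein gene, set WT 1 and WT 2 apart: 11153 TPM in WT 1 and 13566 in WT 2, and 34.4 to 51.3 in the rest. The sets of 2 and 6 libraries, above and below 1000 TPM of Mbp, are defined by a measured value and both libraries of the first are WT, so they are described without a test, and the difference between KO and WT is also given without WT 1 and WT 2. The summed level of 6 markers of young neurons was 1315 to 1321 TPM in WT 1 and WT 2 and 7568 to 10484 TPM in the other 6, and none of the 6 overlapped: Dcx, a gene of immature neurons, reached 5.08 TPM in WT 1 and 9.50 in WT 2, and between 368 and 619 in the rest. The labels give the same age for all 8 libraries, which was not tested, and any WT mean joins libraries that differ this far. The summed level of 6 oligodendrocyte markers was 26525 to 33362 TPM against 58.1 to 91.5 TPM, with Opalin at 0 in all of the other 6. All 9 thalamic markers were above 0 in every library, with their sum lowest in WT 3 (454 TPM, against 1288 to 2409 TPM in the other 7). That sum joins unlike markers: in WT 1 and WT 2, 2 of the 9 lay above the other 6 libraries and 3 below. Rora was at 628 and 529 TPM there against 13.9 to 101 TPM, and Lhx2 at 3.47 and 4.18 TPM against 10.1 to 111 TPM. Tcf7l2 was at 43.4 TPM in WT 3 and 250 to 1074 TPM in the other 7. The summed level of 8 markers of other excitatory forebrain neurons was 619 and 507 TPM in WT 1 and WT 2, 143 to 166 TPM in both other WT libraries, 701 TPM in KO 1 and 93.5 to 259 TPM in KO 2, KO 3 and KO 4. In WT 1 and WT 2 most of that sum was Slc17a7, a vesicular glutamate transporter gene, at 524 and 411 TPM, with Neurod6, a cortical and hippocampal transcription factor gene, at 0 and 0.33 TPM, while KO 1 had 36.1 TPM of Slc17a7 and 140 TPM of Neurod6. Depth per library is unknown, so no counting error can be given, and in bulk tissue fewer cells of a type and less RNA per cell cannot be told apart.

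Camk2a, the kinase alpha subunit (chromosome 18, 60925618 to 60988152), separated the libraries most widely of the 9 genes. It was at 447 TPM in WT 1, 393 in WT 2, 71.9 in WT 3 and 48.6 in the library labelled WT 4. In KO 1 to KO 4 it was at 74.6, 40.9, 61.1 and 45.7 TPM. The lower of WT 1 and WT 2 was 5.27 times the highest of the other 6, while WT 3 and the library labelled WT 4 lay inside the KO range. KO 1, which had the most forebrain marker RNA of all libraries, was the highest KO library for Camk2a, and Slc17a7 was higher in WT 1 and WT 2 as Camk2a was; the part of other forebrain tissue in these values was not tested. The means were 240 ± 209 TPM (WT) and 55.5 ± 15.3 TPM (KO, SD, n = 4 each). The KO minus WT difference on the log2(TPM + 1) scale was −1.53 (SE 0.72) and did not pass in limma (adjusted p = 0.429). Without WT 1 and WT 2 the difference was −0.13 (SE 0.27).

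Camk2b, the kinase beta subunit (chromosome 11, 5969644 to 6066362), followed the same split with a narrower step. It was at 428 TPM in WT 1, 393 in WT 2, 251 in WT 3 and 214 in the library labelled WT 4. The KO values, in order, were 247, 218, 265 and 248 TPM. Every one of the other 6 libraries lay below WT 1 and WT 2, and the library labelled WT 4 was the lowest of all 8. The difference was −0.34 (SE 0.24, adjusted p = 0.455 in limma), and it turned to 0.072 (SE 0.13) without WT 1 and WT 2.

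The balance of RNA of both subunit genes therefore differed within the WT group. TPM is per length, so the genes can be set side by side: the ratio of Camk2a to Camk2b was 1.04 in WT 1, 1.00 in WT 2, 0.287 in WT 3 and 0.227 in the library labelled WT 4. In KO 1 to KO 4 it was 0.302, 0.187, 0.231 and 0.184. RNA of the alpha and beta genes was about level in WT 1 and WT 2, and that of the beta gene was the higher in each of the other 6. The gamma and delta genes of the same kinase, Camk2g and Camk2d, which are made in many tissues, did not follow the split. Camk2g was at 128 TPM in WT 1, 123 in WT 2 and 99.7 to 167 in the rest, and Camk2d was at 142 and 145 TPM against 81.8 to 203 TPM. Camk2a made up 39.0% and 37.2% of the summed TPM of the 4 kinase genes in WT 1 and WT 2 and between 7.62% and 14.8% in the other 6. Camk2b held 37.4% and 37.3% there and 36.9% to 49.1% in the rest, so its share overlapped although its level did not.

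**Figure D1:**
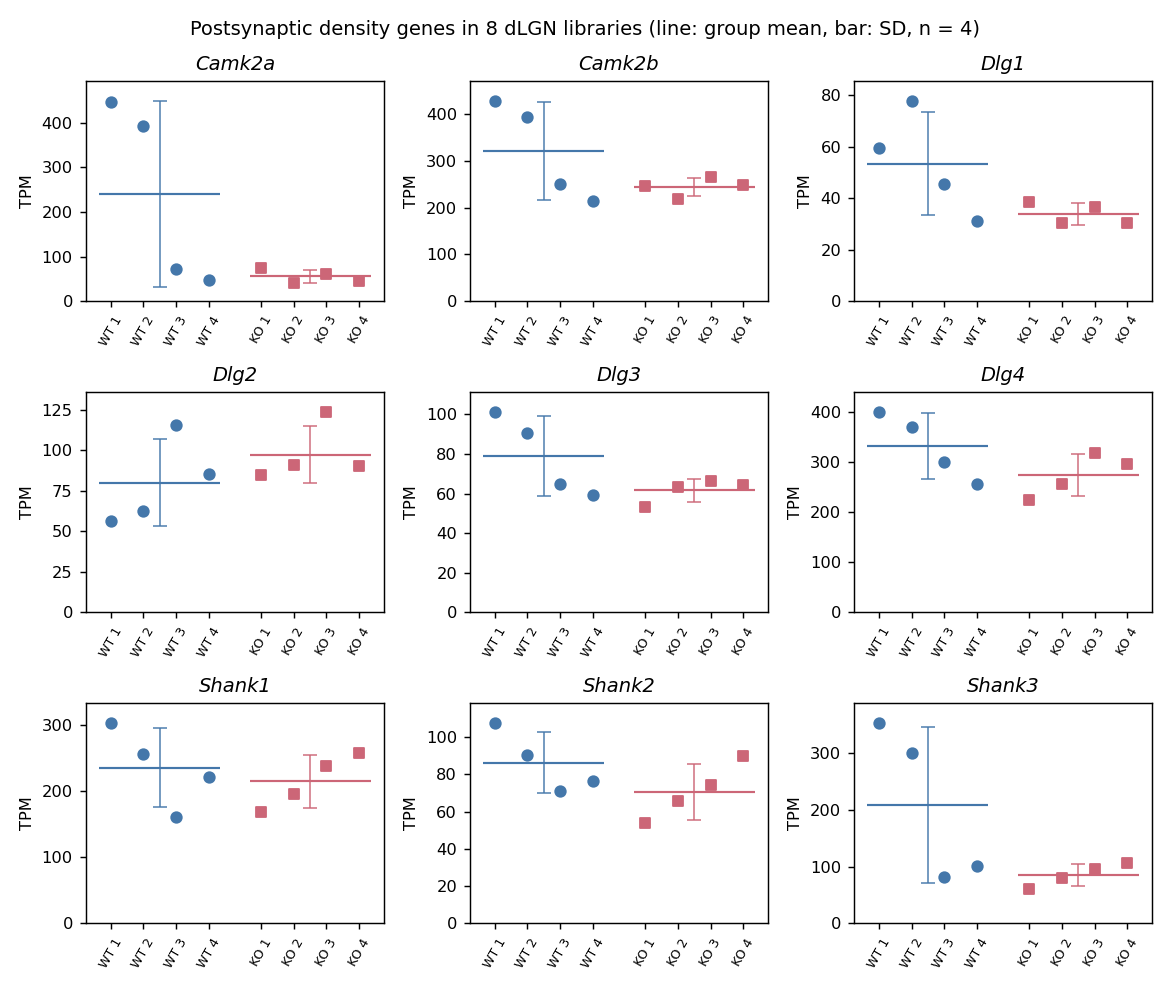
TPM of each of the 9 genes (vertical axis, from 0) in the 4 WT libraries (circles) and 4 KO libraries (squares), with the group mean as a line and the SD as a bar (n = 4). Camk2a and Shank3 stand far higher in WT 1 and WT 2 than in the other 6 libraries, Dlg2 is lowest in WT 1 and WT 2, and WT 3 and the library labelled WT 4 lie near or within the KO values.

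Among the Shank scaffolds, Shank3 (chromosome 15, 89499623 to 89560261) carried most of the split. Shank3, whose loss is known to impair corticostriatal synapses in mice, was at 352 TPM in WT 1, 300 in WT 2, 81.6 in WT 3 and 101 in the library labelled WT 4. KO 1 to KO 4 gave 60.1, 80.4, 94.9 and 106 TPM. The lower of WT 1 and WT 2 was 2.83 times the highest of the other 6, and both other WT libraries fell inside the KO range. The means were 209 ± 138 TPM (WT) and 85.4 ± 19.9 TPM (KO, SD, n = 4 each). The log2 difference was −1.03 (SE 0.49) and did not pass in limma (adjusted p = 0.429), and it was −0.12 (SE 0.23) without WT 1 and WT 2.

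Shank1 (chromosome 7, 44310253 to 44360572), a scaffold of spine heads, was at 302 TPM in WT 1, 256 in WT 2, 161 in WT 3 and 222 in the library labelled WT 4. In KO 1 to KO 4 it was at 168, 196, 237 and 257 TPM. It was the only one of the 9 genes for which WT 1 and WT 2 overlapped the other 6, since KO 4 at 256.85 TPM exceeded WT 2 at 256.3 TPM, and with trimmed-mean (TMM) factors or after rescaling without the 20 most abundant genes it lay above them. Its log2 difference was −0.11 (SE 0.23, adjusted p = 0.780 in limma) and 0.16 (SE 0.21) without WT 1 and WT 2. By the annotation, Shank1 overlaps 1700008O03Rik on the opposite strand. That gene was at 0 to 6.77 TPM, and no source used here says whether counting used strand.

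Shank2 (chromosome 7, 144001928 to 144424494), the third scaffold of the family, was at 107 TPM in WT 1, 90.5 in WT 2, 70.8 in WT 3 and 76.4 in the library labelled WT 4. The KO values, in order, were 53.8, 65.7, 74.0 and 89.5 TPM. WT 2 was 1.01 times KO 4, so the libraries were barely apart, and WT 3 and the library labelled WT 4 lay within the KO range. Its difference was −0.29 (SE 0.19, adjusted p = 0.448 in limma) and −0.079 (SE 0.20) without WT 1 and WT 2.

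Within the Shank family, Shank3 had a larger share and Shank1 and Shank2 smaller shares in WT 1 and WT 2 than in any of the other 6. Of the family's summed TPM, Shank3 held 46.2% in WT 1, 46.4% in WT 2, 26.1% in WT 3 and 25.2% in the library labelled WT 4, with 21.3% to 23.5% in the KO libraries. Shank1 held 39.7%, 39.6%, 51.3% and 55.6% in the same WT order, and from 56.8% to 59.6% in the KO libraries. The ratio of Shank3 to Shank2 was 3.28 and 3.32 in WT 1 and WT 2 and 1.12 to 1.32 in the other 6, with KO 1 lowest and the library labelled WT 4 highest. In both shares WT 3 and the library labelled WT 4 lay outside the KO range, with more Shank3 and less Shank1 than any KO library, which was seen after the values were examined and was not tested.

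Dlg4 (chromosome 11, 70016942 to 70047522) encodes PSD-95, the main scaffold of mature excitatory synapses. It was at 399.93 TPM in WT 1, 370.5 in WT 2, 301 in WT 3 and 255 in the library labelled WT 4. KO 1 to KO 4 gave 225, 257, 318 and 296 TPM. The lower of WT 1 and WT 2 was 1.16 times the highest of the other 6, a far narrower step than that of Camk2a. The means were 332 ± 65.7 TPM (WT) and 274 ± 41.4 TPM (KO, SD, n = 4 each). The log2 difference was −0.26 (SE 0.19, adjusted p = 0.464 in limma) and −0.027 (SE 0.17) without WT 1 and WT 2.

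Dlg3 (chromosome X, 100767722 to 100818410), which encodes SAP102, a scaffold known from young synapses in the rodent brain, was at 101 TPM in WT 1, 90.4 in WT 2, 64.8 in WT 3 and 59.3 in the library labelled WT 4. In KO 1 to KO 4 it was at 53.1, 63.3, 66.1 and 64.3 TPM. All of the other 6 lay below WT 1 and WT 2, by at least 1.37-fold. Its difference was −0.32 (SE 0.19, adjusted p = 0.429 in limma) and −0.011 (SE 0.13) without WT 1 and WT 2.

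Dlg1 (chromosome 16, 31663443 to 31875129) encodes SAP97, a scaffold found in epithelia and glia as well as in neurons. It was at 59.3 TPM in WT 1, 77.8 in WT 2, 45.5 in WT 3 and 31.0 in the library labelled WT 4. The KO values, in order, were 38.3, 30.2, 36.6 and 30.3 TPM. WT 3 lay between WT 1 and WT 2 and all KO libraries. The difference was −0.57 (SE 0.26), with the smallest unadjusted p of the 9 genes (0.0606, adjusted p = 0.429 in limma), and −0.15 (SE 0.18) without WT 1 and WT 2. The ratio of Dlg4 to Dlg1 was 6.74 and 4.77 in WT 1 and WT 2 and 5.88 to 9.79 in the other 6, so it overlapped.

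Dlg2 (chromosome 7, 90476672 to 92449247), which encodes PSD-93, was the only one of the 9 genes on the other side. It was at 56.3 TPM in WT 1, 62.7 in WT 2, 116 in WT 3 and 85.4 in the library labelled WT 4. KO 1 to KO 4 gave 84.8, 90.9, 123 and 90.1 TPM. The lowest of the other 6 was 1.35 times the higher of WT 1 and WT 2, and WT 3 and KO 3 were the highest. The difference was 0.32 (SE 0.24, adjusted p = 0.476 in limma) and −0.048 (SE 0.19) without WT 1 and WT 2. Dlg2 made up 9.12% and 10.4% of the summed TPM of Dlg1 to Dlg4 in WT 1 and WT 2 and 18.7% to 22.7% in the other 6. Dlg4 held the largest share in every library, 64.9% and 61.6% in WT 1 and WT 2 and 56.1% to 61.6% in the other 6.

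**Figure D2:**
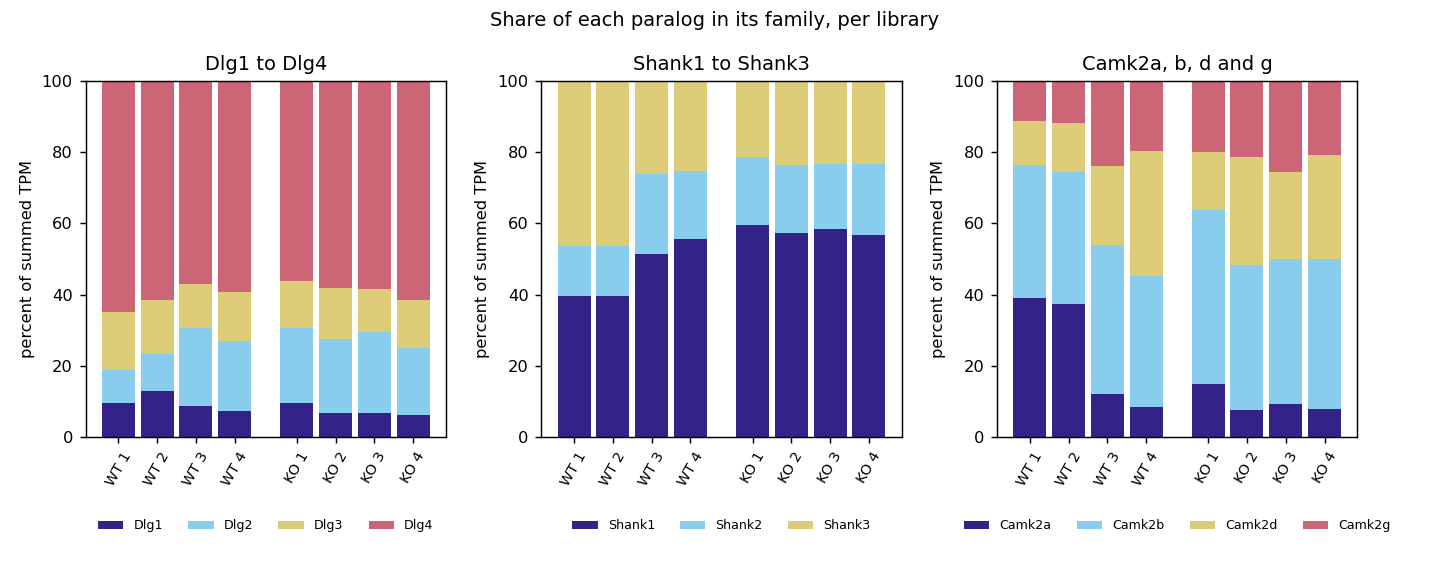
Percent of the summed TPM (vertical axis) held by each gene of the Dlg family, the Shank family and the Camk2 family in each of the 8 libraries (bars). WT 1 and WT 2 have larger shares of Shank3 (46.2% and 46.4%) and Camk2a (39.0% and 37.2%) and a smaller share of Dlg2 (9.12% and 10.4%) than any of the other 6.

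The sequence before the start of transcription is shown for Shank3 and Camk2b, which were higher in WT 1 and WT 2, and for Dlg2, which lay on the other side. RefSeq (GRCm38.p6) lists 14 starts for 6 of the 9 genes, namely Dlg1, Dlg2, Dlg3, Dlg4, Shank3 and Camk2b. The lines give the 100 bases before the only listed start of Shank3 and Camk2b and before the first of 3 listed for Dlg2, 5′ to 3′ on the strand of the gene, with each CG pair in capitals.
Shank3, chr15:89499508-89499607, plus strand: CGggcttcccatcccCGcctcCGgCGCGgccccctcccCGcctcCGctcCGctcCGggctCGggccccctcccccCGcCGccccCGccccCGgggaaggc
Camk2b, chr11:6065749-6065848, minus strand: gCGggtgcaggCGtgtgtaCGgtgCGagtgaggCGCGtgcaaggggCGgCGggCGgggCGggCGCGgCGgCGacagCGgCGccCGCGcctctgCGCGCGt
Dlg2, chr7:91090686-91090785, plus strand: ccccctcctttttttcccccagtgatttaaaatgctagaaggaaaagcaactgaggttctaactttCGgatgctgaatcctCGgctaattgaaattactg
Over the 250 bases before the start, G and C made up 82.4% for Shank3 and 78.4% for Camk2b, with 31 and 44 CG pairs, and 45.2% for this start of Dlg2, with 3. The median of 32841 listed promoters was 52.4% and 6 pairs. Other genes that were higher in WT 1 and WT 2 had starts at 30.8% to 68.8% (Dlg1), 47.2% to 68.0% (Dlg4) and 55.2% and 69.2% (Dlg3). Nothing on the direction of a gene is therefore read from the stretches shown. TATAAA (either strand) was found before 2 of the 14 starts, 1 each of Dlg1 and Dlg2, and is held by 12.4% of all listed promoters. TGACG, the core of the cAMP response element (either strand), was found before 2 of the 14, 1 each of Dlg3 and Dlg4, against 17.8% of all. The stretches shown for Dlg2 and Camk2b lie inside the gene spans given above, so these listed starts are not the outermost ends of the annotated genes. The values are per gene and do not show which start was used, so these matches describe the sequence alone.

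For the 9 genes together, 0 passed in the comparison of KO with WT, as did 0 (0%) of the 15967 genes tested in limma, the smallest adjusted p of all genes being 0.249. At an unadjusted p under 0.05 the count was 0 of 9, against 1223 genes or 7.66% of all. Leaving out the library labelled WT 4 raised it to 5 of 9 (Dlg1, Dlg3, Shank3, Camk2a and Camk2b), against 27.1% of all, and leaving out WT 3 to 3 of 9 (Dlg2, Shank3 and Camk2a), against 26.8% of all, with 0 of 9 passing after adjustment in both. The groups overlapped for each of the 9, while 3.34% of all genes had KO and WT libraries apart. Of the 9 differences, 8 lay below 0, with a median of −0.32, while 39.9% of all genes lay below 0 and their median was 0.10. Scaling moved that median, to −0.0067 with TMM factors and 0.012 after quantile normalization. Relative to the median of all genes, Camk2a stood at −1.63, Shank3 at −1.13, Dlg1 at −0.68, Camk2b at −0.44, Dlg3 at −0.42, Shank2 at −0.39, Dlg4 at −0.37, Shank1 at −0.22 and Dlg2 at 0.22. No sign turned under TMM factors, quantile normalization or rescaling.

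Without WT 1 and WT 2, where WT 3 and the library labelled WT 4 are the only WT libraries, the 9 differences ran from −0.15 to 0.16 with SE from 0.13 to 0.27, and 7 lay below and 2 above 0. Their median was −0.048, beside −0.0032 for all genes. Of the 18 values of the 9 genes in these 2 WT libraries, 15 lay inside the KO range, 1 above it and 2 below it. The same share over all genes was not computed, so nothing particular to the 9 genes is read from this count. None of the 9 had an unadjusted p under 0.05 there, against 2.14% of all genes, and 0 passed, against 0.0125% of all.

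**Figure D3:**
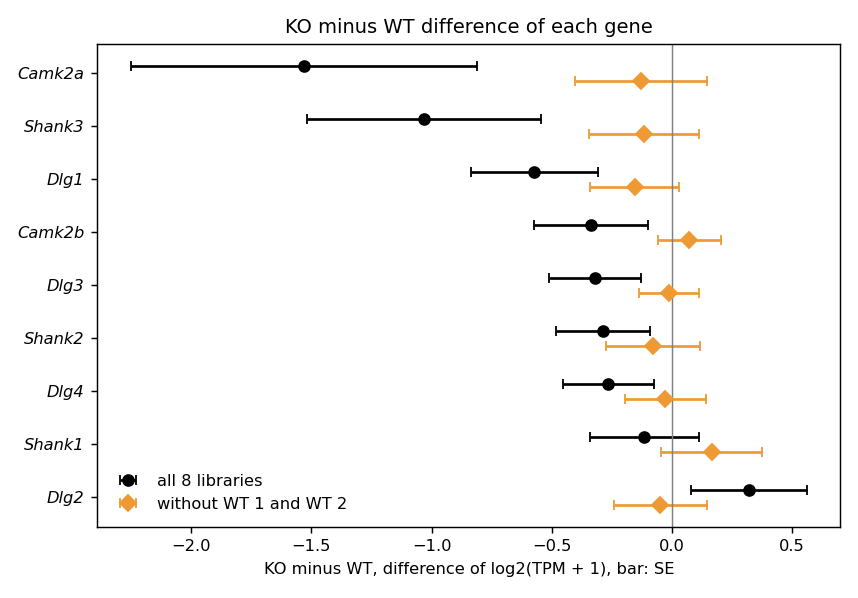
KO minus WT difference of log2(TPM + 1) for each gene (horizontal axis) with its SE, for all 8 libraries (circles) and without WT 1 and WT 2 (diamonds). Camk2a moves from −1.53 to −0.13 and Shank3 from −1.03 to −0.12 when WT 1 and WT 2 are left out, and the 9 diamonds lie between −0.15 and 0.16.

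The 2 high-Mbp libraries both lay above the other 6 for 7 of the 9 genes, against 22.5% of all genes tested, and both below for Dlg2, against 40.5% of all. With TMM factors 8 of the 9 lay above, against 30.9% of all, and Dlg2 stayed below. A step of at least 2-fold above the highest of the other 6 was found for Camk2a and Shank3, against 5.34% of all genes. The step was between 1.01-fold and 1.48-fold for the other 5 genes above. The same libraries had higher sums of myelin, astrocyte and microglia markers and a lower sum of young-neuron markers. The sum of 5 astrocyte markers was 2403 to 2556 TPM in WT 1 and WT 2 against 409 to 722 TPM in the other 6, with 3 of the 5 above all of them. The sum of 6 microglia markers was 254 to 281 TPM against 95.2 to 125 TPM, with all 6 above. The sum of 5 markers of oligodendrocyte precursors was 630 to 750 TPM against 199 to 316 TPM, with 3 of the 5 above. General neuronal markers were split: their sum was 3784 to 4184 TPM in WT 1 and WT 2 against 2124 to 3424 TPM, with 3 of 6 above the other 6 libraries and 1 below. Snap25, a gene of the vesicle fusion machinery, was at 1767 and 1607 TPM against 130 to 275 TPM, and Stmn2, a gene of growing axons, at 367 and 358 TPM against 1381 to 2019 TPM. The part of these cells in the values of the 9 genes was not tested.

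The order of the 9 levels differed between WT 1 and WT 2 and the 6 libraries of low Mbp, in each of which Dlg4, Camk2b and Shank1 took the top 3 ranks and Dlg1 the last. Ranked by the median TPM of the 6, the order was Dlg4 (277 TPM), Camk2b (247), Shank1 (209), Dlg2 (90.5), Shank3 (88.3), Shank2 (72.4), Dlg3 (63.8), Camk2a (54.9) and Dlg1 (33.8). Some neighbours could not be ordered: Dlg4 exceeded Camk2b in 5 of the 6, Camk2b exceeded Shank1 in 4, Dlg2 exceeded Shank3 in 4, and Dlg3 exceeded Camk2a in 4. Shank1 exceeded Dlg2, Shank3 exceeded Shank2, Shank2 exceeded Dlg3 and Camk2a exceeded Dlg1 in all 6. In WT 1 Camk2a ranked 1 and in WT 2 it ranked 2, after Camk2b, and Dlg2 ranked 9 in both.

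Genes of like pattern were sought as those with the smallest root-mean-square difference of centred log2(TPM + 1) over the 8 libraries, 2 for each gene. For Camk2a, whose own spread was 1.28 by the same measure, these were Ell2, a transcription elongation factor gene (0.164), and Gpr123, an adhesion receptor gene (0.172). Ell2 was at 41.1 TPM in WT 1, 46.1 in WT 2 and 3.98 to 6.52 in the rest. For Shank3 they were Lpcat4, a lysophospholipid acyltransferase gene (0.104), and Nmur1, a neuromedin U receptor gene (0.105). Its levels were low, at 3.90 TPM in WT 1, 3.34 in WT 2 and 0 to 0.44 in the rest, so it reached the mean of 1 TPM needed for testing through WT 1 and WT 2 alone, and nothing is read from its likeness. For Camk2b they were Slmap (0.0642) and Cdc42se2 (0.0664), for Dlg4 Arf3 (0.0422) and Tcf25 (0.0489), and for Dlg3 Wdr37 (0.0426) and Sgms1 (0.0459). For Dlg1 they were Sgpp1 (0.110) and Sirpa (0.115), for Shank1 Rnf157 (0.0762) and Fam168a (0.0816), and for Shank2 Itga3 (0.0861) and Dapk1 (0.0871). For Dlg2 they were Svop, a synaptic vesicle protein gene (0.0690), and Tro (0.0776), both lowest in WT 1 and WT 2.

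Other genes of the postsynaptic density did not share 1 direction. Of 47 other scaffold and adaptor genes, 43 were tested, with 22 above and 21 below 0, a median log2 difference of 0.014 and 0 past the threshold in limma. Over all genes tested, 39.9% lay below 0 and the median was 0.10. WT 1 and WT 2 both lay above the other 6 for 13 of the 43 (30.2%) and both below for 15 (34.9%), beside 22.5% and 40.5% of all genes tested. Lrrc7, the gene for densin-180, which binds Camk2a, was at 317 TPM in WT 1, 258 in WT 2 and 71.1 to 95.6 in the rest. Its difference was −1.07 (SE 0.42, adjusted p = 0.429 in limma), and WT 3 and the library labelled WT 4 lay above all KO libraries at 84.8 and 95.6 TPM against 71.1 to 82.9 TPM. Anks1b, a gene whose protein binds Dlg4, was at 244 and 231 TPM against 62.1 to 90.9 TPM in the other 6, a difference of −0.82 (SE 0.40). Arc, an activity-regulated gene, was at 20.4 and 24.2 TPM against 2.85 to 8.47 TPM, a difference of −1.16 (SE 0.56).

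On the other side of 0, Mpp3, a gene of the same membrane-associated guanylate kinase superfamily as the Dlg genes, was at 4.22 TPM in WT 1, 6.48 in WT 2 and 44.6 to 56.6 in the rest, a difference of 1.65 (SE 0.74, adjusted p = 0.429 in limma). Lin7c, which binds such scaffolds, was at 54.8 and 57.3 TPM against 233 to 300 TPM, a difference of 1.24 (SE 0.54). Prr7, a gene for a membrane protein of the density, was at 26.2 and 21.1 TPM against 59.4 to 73.6 TPM, a difference of 0.75 (SE 0.36).

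Of 40 other kinase, phosphatase and calmodulin pathway genes, 39 were tested, with 18 above and 21 below 0, a median log2 difference of −0.035 and 0 past the threshold in limma. These again stand beside 39.9% below 0 and a median of 0.10 over all genes. WT 1 and WT 2 both lay above the other 6 for 17 (43.6%) and both below for 8 (20.5%), beside 22.5% and 40.5% of all genes tested. By these shares of the deposited TPM the list leaned to higher values in WT 1 and WT 2, with genes on both sides. With TMM factors the shares of all genes were 30.9% above and 29.5% below, and those of the list are not given here. Camk2n1, which encodes an inhibitor of the kinase, was at 272 TPM in WT 1, 263 in WT 2 and 116 to 139 in the rest, a difference of −0.53 (SE 0.29). Pcp4, a calmodulin-binding protein gene, was at 656 and 842 TPM against 53.1 to 87.3 TPM, a difference of −1.56 (SE 0.94). Cdk5, a neuronal kinase gene, was at 144.32 and 144.01 TPM against 78.3 to 102 TPM, a difference of −0.41 (SE 0.19). Nrgn, the gene for neurogranin, which holds calmodulin at low calcium, lay the other way, at 17.4 TPM in WT 2 and less in WT 1, against 18.8 to 54.9 TPM, a difference of 1.04 (SE 0.42). Prkar2b, a regulatory subunit of protein kinase A, was at 20.4 and 23.4 TPM against 172 to 232 TPM, a difference of 1.64 (SE 0.76). Gsk3b, a serine/threonine kinase gene, was at 141 and 139.55 TPM against 194 to 256 TPM, a difference of 0.43 (SE 0.17). All of these had an adjusted p of 0.429 in limma.

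**Figure D4:**
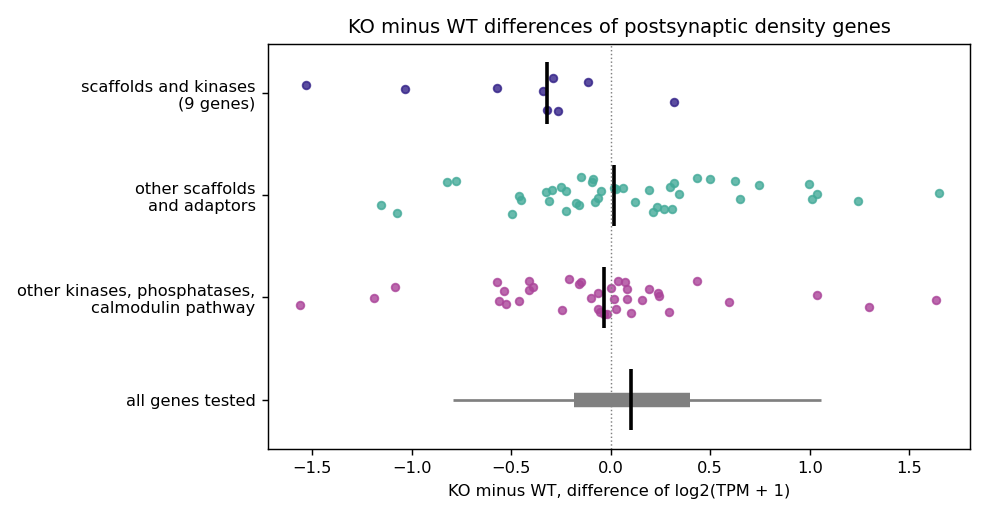
KO minus WT difference of log2(TPM + 1) (horizontal axis) of each of the 9 genes, of 43 other scaffold and adaptor genes and of 39 other kinase, phosphatase and calmodulin pathway genes (points), with the median as a black bar, and for all 15967 genes the central 50% (thick line) and 90% (thin line) of values. The median of the 9 genes is −0.32 and those of the other lists are 0.014 and −0.035, and 7 of the 9 genes, all but Camk2a and Shank3, lie within the central 90% of all genes.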

How the data were processed

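The authors deposited 1 matrix of TPM per gene and library, as its sheet name and sums show, with their mean TPM per group, which was not used. BWA, edgeR 3.14.0, GRCm38 and mm10 are listed per the submitters' processing notes, with no settings, and no source used here gives the annotation or the use of strand. TPM summed to 968958 to 997426 per library and keeps no depth.

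Values were taken as log2(TPM + 1). All 9 members were among the 15967 genes whose mean reached 1 TPM, which were compared by limma 3.58.1 in R 4.3.3 (trend and robust, no covariate, two-sided, Benjamini-Hochberg over all genes, threshold 0.05). Each library was treated as an independent replicate, which the labels number but do not describe, and the litter of each mouse is not in the labels. This fit was tested on simulated data holding known changes. Its noise was independent and had the same SD for a gene in both groups, so it does not cover a WT group made of unlike libraries. Positions are from GENCODE M21. Ratios, shares and the split by Mbp were described without a test. Some genes of the lists and markers were not analysed here. Named genes are the members, the 3 of smallest p on each side of 0 per list, and the 2 of most like pattern per member, with Camk2d and Camk2g. Members and lists were chosen with earlier results of these data known. Alternatives were other pseudocounts, filters, scalings, variance models, array weights, a replicate block and left-out libraries. Figures used matplotlib 3.10.9.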

Additional observations from a re-analysis of the deposited data

Results flagged for a closer look

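Within groups of 4, each of the 9 genes, Camk2d, Camk2g, Tnfrsf12a, Mbp and the 3 ratios was checked for 1 library whose gap to its nearest neighbour was too large a part of the group's range by Dixon's test. The check covered 32 groups, and chance marks about 5%. KO 3 stood high for Dlg2, at 123.41 TPM, while KO 1, KO 2 and KO 4 ran from 84.8 to 90.9 TPM and WT 3 was at 116 TPM. For Camk2d the library labelled WT 4 stood high in its group at 203.34 TPM, against 134 to 145 TPM, and KO 1 stood low in its group at 81.79 TPM, against 159 to 172 TPM. KO 1 also had the highest summed level of other excitatory forebrain markers, 701 TPM, and the part of that tissue in the value was not tested.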

How the results depend on the processing

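Of 171 values of the 9 genes under 19 alternatives, 158 kept their sign and stayed short of the threshold, 4 turned sign and 9 passed. The 4 were Dlg2 (−0.048), Shank1 (0.16) and Camk2b (0.072) without both high-Mbp libraries, and Shank1 without WT 1 (0.018). The 9 came with array weights, where WT 3 (0.13) and the library labelled WT 4 (0.138) counted least: Camk2a −2.98, Shank3 −1.83, Dlg1 −1.10, Camk2b −0.77, Dlg3 −0.55, Dlg4 −0.49, Shank2 −0.46, Shank1 −0.37 and Dlg2 0.58. There 6569 of the 15967 genes tested were called higher and 3807 lower. Of the other lists, 29 of the 43 genes of the scaffold list and 24 of the 39 of the kinase list passed. Passing is therefore not particular to these 9 genes. All genes called otherwise were 1 higher without trend and robust estimation and 2 lower without both high-Mbp libraries, and 0 to 1 lower without 1 library, the 1 being without KO 3. The scaffold list's median of 0.014 was −0.11 with TMM factors and 0.12 with array weights, and the kinase list's median of −0.035 was 0.11 without both high-Mbp libraries. Over the fits that each left out 1 library, the difference of Camk2a lay between −2.09 and −1.03 and that of Shank3 between −1.39 and −0.69. The lowest and highest values were −0.80 and −0.37 for Dlg1, −0.51 and −0.18 for Camk2b, and −0.44 and −0.19 for Dlg3. They were −0.38 and −0.17 for Dlg4, −0.41 and −0.17 for Shank2, −0.28 and 0.018 for Shank1, and 0.17 and 0.51 for Dlg2. The log2 ratio of Camk2a to Camk2b differed by −1.19 between KO and WT and by −0.20 without both high-Mbp libraries, and that of Shank3 to Shank2 by −0.74 and −0.038. The labels' replicate numbers are not shown to pair the mice, as same-numbered deviations correlated at −0.10, 0.07, 0.06 and 0.03. With a replicate block 0 genes passed, and adjusted p of the 9 genes ran from 0.45 to 0.83. Depth is unknown, so its limit on low levels cannot be given.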
